A study of Mus musculus with 2 samples.

Results

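*Kcnq1ot1* and *Kcnq1* are a pair of genes on mouse chromosome 7 that are transcribed in opposite directions over the same DNA. They were chosen by name and position, as the host gene *Kcnq1* on the (+) strand and the long RNA *Kcnq1ot1* that runs against it on the (−) strand, and make up 2 of 37311 annotated genes when *Kcnq1ot1* is included. Of these genes 1719 lay wholly inside the stretches of the genome where signal was present, *Kcnq1ot1* among them, and *Kcnq1* reached past its stretch with its last exon. RNA was sequenced from mouse embryo fibroblasts (MEFs), cultured from embryos after head and inner organs were taken off. JXO was 1 line from a female 13.5 dpc embryo of a JF1 mother and a TgOG2 (OG2) father, and OXJ was 1 line from a female 13.5 dpc embryo of the reverse mating, an OG2 mother and a JF1 father. JF1 is an inbred strain of the molossinus subspecies, and OG2 mice derive from CBA/CaJ and C57BL/6J and carry EGFP under a *Pou5f1* promoter, a transgene for germ cells that both crosses inherited from 1 parent. RNA of early-passage cells was depleted of ribosomal RNA with the Ribominus kit and sequenced from both ends with the strand kept. Each cross is thus 1 embryo, 1 line and 1 library, and there are no replicates.

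*Kcnq1ot1* is an imprinted long non-coding RNA, known to be made from the paternal chromosome only. Its promoter lies in an intron of *Kcnq1*, in a CpG-rich region (KvDMR1) that is methylated on the maternal chromosome, and the RNA silences neighbouring genes such as *Cdkn1c* on the chromosome that makes it. *Kcnq1* encodes the pore-forming subunit of a voltage-gated potassium channel that is used in the heart, the inner ear and several epithelia.

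Values are scaled depths, the number of reads covering a base had 50000000 reads been aligned, and a level is the mean scaled depth over a region. One read over a base was worth 0.652 in JXO and 0.579 in OXJ. The tracks held 5837225 JXO reads and 5785447 OXJ reads, or 7.61% and 6.70% of all that were aligned, in 618 stretches of 63.7 Mb in total, so a base outside the stretches is not a measurement of silence. Intervals are exact 95% intervals on read pairs (Poisson for levels, Clopper-Pearson for shares, conditional binomial for ratios) and cover counting error only. A level of 0 is given with the level that 3 read pairs would have made. Of the protein-coding genes used to read the direction of the tracks, 511 of 554 in JXO (92.2%) and 506 of 552 in OXJ (91.7%) were higher on their annotated strand. Among the fibroblast markers fixed for a check of the cells, *Col1a2*, a collagen chain, was the 1 of 5 inside the stretches, with an exon level of 583 in JXO and 388 in OXJ, and the heart and epithelial markers were outside the stretches and not analysed here. No base is marked as JF1 or OG2, so the parental allele was not analysed here, and the cross of each library rests on its label. The study's list of read numbers at SNPs bears on that label. Nearly all depths of the tracks matched it as labelled at maternally expressed transcripts, with *H19* matching neither way. At paternally expressed ones, *Kcnq1ot1* included, they matched with JXO and OXJ exchanged. The allele fractions in the same list follow from its read numbers as headed at maternally expressed transcripts. At paternally expressed ones such as *Impact*, *Blcap* and *Slc38a4*, they follow only with the crosses exchanged, as the depths do. The read columns of the list thus appear exchanged there, and the library labels match its allele fractions. The fractions at *Kcnq1ot1* are the same either way, and the tracks, without alleles, cannot test the labels.

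GENCODE M1 has no *Kcnq1ot1* entry under that name. The gene was placed on mm9 by the single exact match of its RefSeq promoter (GRCm38.p6), which puts the start at chr7:150482452, and by laying its RefSeq length of 83437 bases from there, at chr7:150399016-150482452 on the (−) strand. The far end was therefore not matched by sequence. The promoter is shown because the (−) strand signal of *Kcnq1ot1* began inside its last 50 bases in both libraries. It spans chr7:150482403-150482702 and is printed 5′ to 3′ on the strand of the RNA, with 250 bases before the start and 50 from it, and with the letters CCAAT in capitals.
*Kcnq1ot1* promoter: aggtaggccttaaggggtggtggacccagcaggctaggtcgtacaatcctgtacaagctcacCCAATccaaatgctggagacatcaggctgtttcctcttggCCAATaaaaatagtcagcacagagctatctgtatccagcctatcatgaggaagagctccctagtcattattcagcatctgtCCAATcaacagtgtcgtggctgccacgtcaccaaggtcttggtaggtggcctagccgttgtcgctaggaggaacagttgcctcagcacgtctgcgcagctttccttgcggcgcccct

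CCAAT was searched on both strands and occurred 3 times, all on the strand of the RNA, with first bases 188, 148 and 67 bases before the start. Of 32544 RefSeq promoters of the same length, 37.4% held at least 1 match and 3.35% held at least 3. The GC box letters, GGGCGG, had no match on either strand of this window and were in 35.9% of all promoters. The E box, CACGTG, had none either, beside 7.17% of all promoters. The TATA box, TATAAA, was likewise not found, beside 13.6% of all promoters. CpGs were most frequent just inside the transcript. The first kb downstream of the start held 68 CpGs, with a ratio of observed to expected CpGs of 0.885, and the next kb held 31 (0.536). The median 1 kb bin of *Kcnq1ot1* held 5 (0.135), and the kb before the start held 10 (0.162). The printed promoter, which reaches only 50 bases into the transcript, had a ratio of 0.422, against a median of 0.387 over all promoters.

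*Kcnq1ot1* had signal along its length in both MEF lines, but in OXJ very little at the far end. There the last 2 kb held 3.05 (−) strand reads over 13.25% of the bases in OXJ. On the (−) strand, 17008 reads of JXO gave a level of 13.3 (13.0 to 13.6), and 9404 reads of OXJ a level of 6.52 (6.34 to 6.71). All 83 bins of 1 kb held (−) strand reads in both libraries, and at least 1 read lay over 97.2% of its bases in JXO, against 91.3% for OXJ. The signal was thus a near-continuous band and not a row of separate exons. Bases without a read fell into 23 gaps in JXO (2353 bases in total) and 84 gaps in OXJ (7260 bases). Most gaps of 100 bases or more were in the last part of the gene, beyond 75 kb from the start, with 7 of 8 in JXO and 10 of 15 in OXJ. The longest was 584 bases in JXO, at chr7:150401109-150401692, and 1490 bases in OXJ, at chr7:150399597-150401086. Across the 83 bins the profiles of the libraries had a Pearson correlation of 0.911 on the log2 scale and a Spearman correlation of 0.705, a description over bins that share their sequence.

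Nearly all signal over *Kcnq1ot1* was on its own strand. The (−) strand held 98.4% of the reads in JXO (98.1 to 98.6%) and 98.2% in OXJ (97.8 to 98.6%). The other strand therefore held 1.64% in JXO and 1.79% in OXJ. Protein-coding genes with no annotated gene on the opposite strand and at least 100 reads give the background of this value. Their median share on the wrong strand was 2.76% over 355 genes in JXO (25th to 75th percentile 1.87 to 3.92%) and 3.55% over 349 genes in OXJ (2.59 to 4.50%). *Kcnq1ot1* lay below the 25th percentile in both libraries, with 19.2% of the genes below it in JXO and 10.6% in OXJ.

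**Figure D1:**
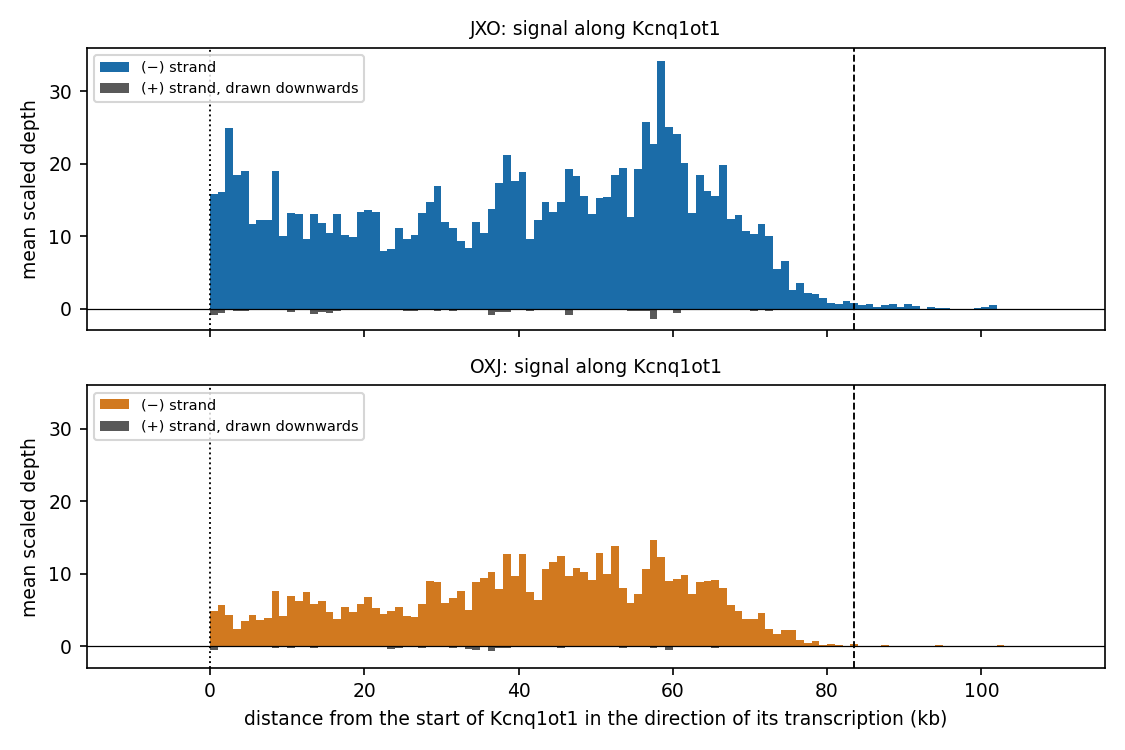
Mean scaled depth in 1 kb bins against the distance from the start of *Kcnq1ot1* in its direction of transcription, for JXO (top) and OXJ (bottom). Bars above 0 are the (−) strand and bars below 0 the (+) strand, the dotted line is the start and the dashed line the RefSeq end; the highest bin reached 34.2 in JXO and 14.7 in OXJ, and no (−) strand bin before the start held a read.

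The start of the signal was sharp. The first base with a (−) strand read was 16 bases inside the RefSeq start in JXO (chr7:150482436) and 2 bases inside it in OXJ (chr7:150482450). No (−) strand read lay in the 50 kb upstream in either library, which allows a level of up to 0.00782 in JXO and 0.00695 in OXJ. Within the first 100 bases the (−) strand held 7.84 reads over 84% of the bases in JXO and 5.89 reads over 98% in OXJ. Over the first kb, JXO had a level of 15.8 (13.1 to 18.9) and OXJ one of 4.85 (3.49 to 6.56). On the (+) strand the 5 kb upstream held 6 reads in JXO, all at least 648 bases away, and 1.55 reads in OXJ, of which 0.55 lay over the 55 bases next to the start. At this depth no transcript leaving the promoter in the other direction was detectable beyond these few reads.

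The end of the signal was gradual. In 10 kb steps from the start, the (−) strand level in JXO was 15.9, 11.8, 11.9, 13.3, 15.0, 20.8, 16.3 and 5.58 up to 80 kb, and that in OXJ was 4.43, 5.71, 5.85, 8.40, 10.1, 10.5, 7.57 and 1.87. Both profiles were highest between 50 and 60 kb, with the highest 1 kb bin beginning at 58 kb in JXO (34.2) and at 57 kb in OXJ (14.7). From 50 to 60 kb to 70 to 80 kb the level was 3.73 times lower in JXO (3.35 to 4.16) and 5.58 times lower in OXJ (4.72 to 6.64). Between 80 and 90 kb, JXO had a level of 0.590 (0.430 to 0.788) and OXJ one of 0.0926 (0.0400 to 0.183). The (−) strand signal was also summed from the start to 30 kb past the RefSeq end. Of this sum, 50% lay within 42.0 kb of the start in JXO and 43.2 kb in OXJ, and 95% within 70.8 and 68.3 kb.

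Low (−) strand signal ran past the RefSeq end. Counted in 1 kb bins from the start, with up to 2 empty bins bridged, it reached 96 kb in JXO (to chr7:150386453, 12.6 kb past the end) and 88 kb in OXJ (to chr7:150394453, 4.56 kb past the end). The 5 kb after the end held 41.7 reads in JXO and 6.95 in OXJ. The next 5 kb held 23.2 reads in JXO and none in OXJ, where 0 allows a level of up to 0.0695. From 10 to 20 kb past the end there were 20.3 reads in JXO and 4 in OXJ, and from 20 to 30 kb 2 and 0. The extent in OXJ thus rests on very few reads. JXO was also higher over the gene itself, and the part of its higher level in its longer reach was not tested.

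The libraries differed in level, and did so unevenly along the gene. With the track totals set equal, *Kcnq1ot1* was 1.79-fold higher in JXO than in OXJ (1.73 to 1.86), a log2 ratio of 0.84 (0.79 to 0.89). The median of 558 genes with at least 100 reads over their exons in each library was itself 0.33, with the middle 95% of genes from −0.49 to 0.95, and 94.8% of these genes had a lower ratio than *Kcnq1ot1*. A ratio of 2-fold stands for a call here, and 11 of the 558 genes (1.97%) were at least 2-fold higher in JXO and 2 (0.358%) at least 2-fold lower. *Kcnq1ot1* as a whole was below 2-fold on this scale and above it on the deposited scale (2.04-fold), where 33 genes (5.91%) were at least 2-fold higher. Cross, strain of the paternal chromosome (by the labels OG2 in JXO and JF1 in OXJ), the match of JF1 reads to mm9, which is a C57BL/6J sequence, embryo and culture all differed between the libraries and cannot be told apart. Nor can fewer cells that make the RNA be told apart from less RNA per cell.

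The ratio was largest at both ends of the transcript. It was 2.00 on the log2 scale over the first 5 kb (1.76 to 2.25), where the level was 18.8 in JXO and 4.14 in OXJ. From 5 to 10 kb it was 1.28 (1.04 to 1.52). It was lowest from 40 to 45 kb, at 0.32 (0.13 to 0.50), with 13.8 in JXO and 9.74 in OXJ, near the median of all genes. Towards the 3′ end it was higher again, 1.43 (1.12 to 1.73) from 70 to 75 kb, where the level was 8.80 in JXO and 2.89 in OXJ. In 1 kb bins, JXO was higher in 82 of 83, by at least 2-fold in 36 (43.4%), and was at least 2-fold lower in none. On the deposited scale 48 bins were at least 2-fold higher, beside 19.4% of all bins. At equal track totals, 13.7% of all 21606 bins of 1 kb tested on either strand were at least 2-fold higher in JXO and 9.09% at least 2-fold lower. Those bins needed only 10 reads over both libraries and were not matched in depth to the bins of *Kcnq1ot1*, so these shares are not at like depth. The 2-fold bins of *Kcnq1ot1* comprised 10 of 10 within 10 kb of the start, 5 of 20 from 10 to 30 kb, 1 of 25 from 30 to 55 kb and 20 of 28 beyond. The lowest bin ratio was −0.05, in the bin from 35 kb, and the highest was 3.95, in the bin from 82 kb, which held 15.5 reads in JXO and 1 in OXJ.

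**Figure D2:**
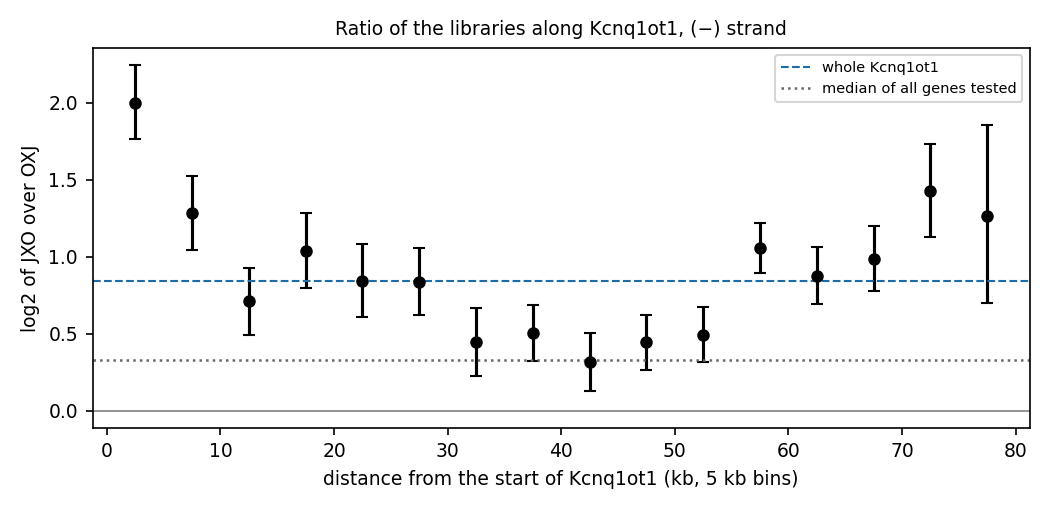
Log2 of the (−) strand level in JXO over that in OXJ, at equal track totals, in 5 kb bins against the distance from the start of *Kcnq1ot1* up to 80 kb; bars are 95% counting intervals, the dashed line is the whole gene (0.84) and the dotted line the median of all genes tested (0.33). The bin at the start stands at 2.00 and that from 40 kb at 0.32.

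The uneven ratio can also be read within each library, where no scaling between libraries enters. In JXO the first 10 kb had 1.06 times the level of the stretch from 40 to 50 kb (0.981 to 1.16). In OXJ the same ratio was 0.439 (0.388 to 0.495), so in OXJ the 5′ end was below the middle of the gene, whereas in JXO both had about the same level. Within the first 10 kb, the first 5 kb were 1.45 times the next 5 kb in JXO (1.29 to 1.63) and 0.879 times in OXJ (0.715 to 1.08). The level from 50 to 60 kb was 1.75 times that from 20 to 30 kb in JXO and 1.79 times in OXJ, each inside the counting interval of the other, although between these points the libraries differed, with 15.0 and then 20.8 in JXO from 40 to 60 kb and 10.1 and then 10.5 in OXJ. The first 25% of the signal, summed to 30 kb past the RefSeq end, was complete at 20.3 kb in JXO and at 27.0 kb in OXJ.

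Some short stretches of *Kcnq1ot1* had reads in only 1 of the libraries. Gaps of at least 100 bases where the other library had a level of at least 5 were found after the values had been seen, and are described without a test. There were 4 in OXJ and 1 in JXO. With a level of 13.3 over the gene, JXO passes the limit of 5 more readily than OXJ with 6.52. The library of lower level also has more bases without a read, so these counts do not compare the libraries. The 3 gaps that lie nearest to the start are shown, as the mm9 sequence on the strand of the RNA, 5′ to 3′, without capitals because no part was singled out. The first spans 146 bases at chr7:150478719-150478864 and the second 136 bases at chr7:150478245-150478380, 3.59 and 4.07 kb from the start, both without a read in OXJ. The third spans 128 bases at chr7:150458145-150458272, 24.2 kb from the start, and had no read in JXO.
OXJ gap at 3.59 kb: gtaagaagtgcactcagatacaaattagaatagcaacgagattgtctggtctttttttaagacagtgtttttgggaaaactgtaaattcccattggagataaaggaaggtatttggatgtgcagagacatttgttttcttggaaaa
OXJ gap at 4.07 kb: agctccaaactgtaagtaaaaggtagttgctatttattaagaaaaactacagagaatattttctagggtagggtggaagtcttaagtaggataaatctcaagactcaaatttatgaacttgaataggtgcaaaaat
JXO gap at 24.2 kb: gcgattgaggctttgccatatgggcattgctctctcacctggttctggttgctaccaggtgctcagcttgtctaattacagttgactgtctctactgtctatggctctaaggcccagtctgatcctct

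Over the gap at 3.59 kb, JXO had a level of 19.6, with 22 to 38 reads at each base. JXO stood at 18.7 in the 200 bases before it and 19.2 in the 200 after it, and OXJ at 0.640 and 2.78. Over the gap at 4.07 kb, JXO had a level of 27.2, with 23 to 53 reads at each base, and OXJ stood at 2.04 before it and 6.81 after it. OXJ was thus low on both sides of the first gap and on 1 side of the second, whose other side was near its level over the whole gene. The JXO gap at 24.2 kb was different in this respect. OXJ had a level of 6.13 there, with 6 to 14 reads at each base, and JXO stood at 7.94 and 11.4 on its sides, so its signal stopped within 1 short stretch. The other OXJ gaps, at chr7:150443345-150443475 (JXO level 11.5) and chr7:150422561-150422662 (JXO level 17.8), also had signal in OXJ close by, at 16.1 and 5.29 around the former and 10.9 and 10.6 around the latter.

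**Figure D3:**
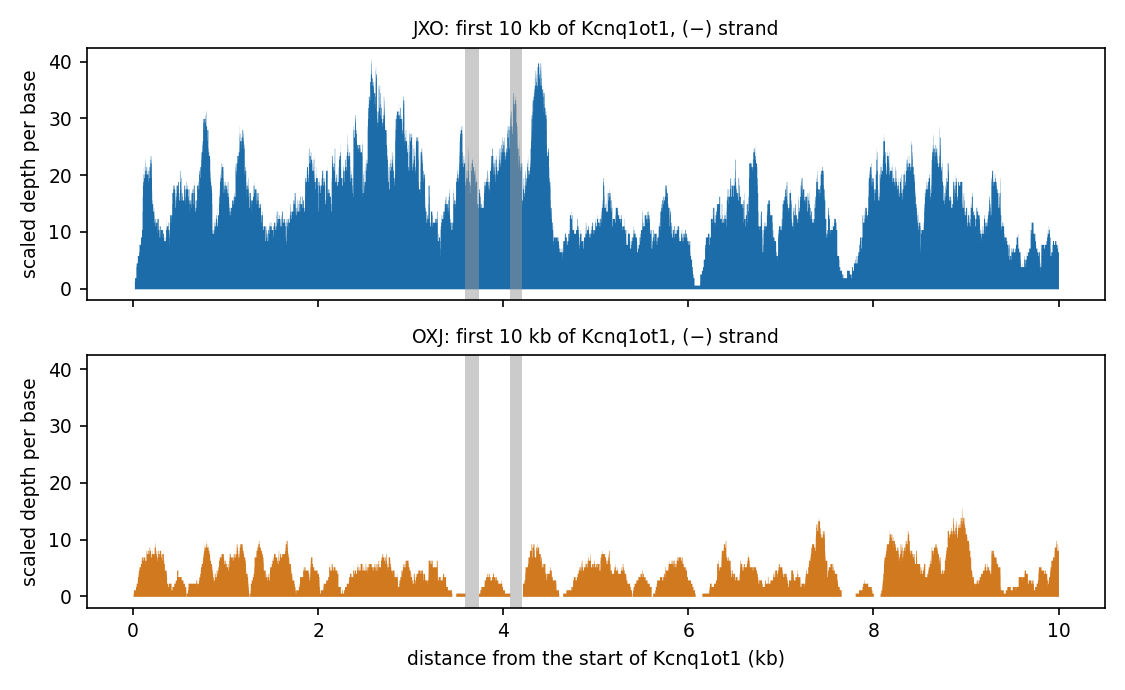
Scaled depth at each base of the (−) strand over the first 10 kb of *Kcnq1ot1*, for JXO (top) and OXJ (bottom), against the distance from the start. Grey bands mark the gaps at 3.59 and 4.07 kb, which have no read in OXJ and levels of 19.6 and 27.2 in JXO.

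*Kcnq1* itself was not detected. The gene (ENSMUSG00000009545.7, chr7:150293159-150612955, 319.8 kb, 3 transcripts) has 17 exons when those of its transcripts are merged. Of these, 11 precede the stretch of *Kcnq1ot1*, 1 lies inside it and 5 follow. The last exon falls in a part of 53.8 kb without signal between 2 stretches and was not counted, which leaves 16 exons of 1946 bases. Outside *Kcnq1ot1*, none of the 15 exons held a (+) strand read in either library. With 1825 bases, 0 allows an exon level of up to 0.214 in JXO and 0.190 in OXJ, far below that of *Kcnq1ot1*. Exon 12, the 1 inside *Kcnq1ot1* (chr7:150447161-150447281, 121 bases), had 8 bases of a single (+) strand read in JXO and none in OXJ. On the (−) strand the same 121 bases held 22.4 reads in JXO and 21.8 in OXJ, as part of the transcript that runs through the exon.

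The (+) strand reads of the locus were in introns, and most lay where *Kcnq1ot1* lies. The introns before *Kcnq1ot1* (104.3 kb) held 2 (+) strand reads in each library, and those beyond it up to the end of the signal (91.0 kb) held 8 in JXO and 8.55 in OXJ. Within *Kcnq1ot1* there were 283 in JXO and 171 in OXJ, a level of 0.221 (0.186 to 0.261) and 0.119 (0.0951 to 0.147). Per base this was 66.9-fold (28.0 to 209) the (+) strand density of the rest of the host gene in JXO and 38.4-fold (16.2 to 117) in OXJ. As given above, the share of these reads over the whole gene was within the range seen on the wrong strand of other genes. In the first kb the share was higher, at 5.45% in JXO (14 reads) and 8.87% in OXJ (8.15 reads). The 95th percentile of those genes was 6.36% in JXO and 7.12% in OXJ. The first kb had the highest share of any bin in OXJ. In JXO the highest was 14.2%, in the bin from 80 kb, with only 2 (+) strand reads. Across the 83 bins, (+) and (−) strand reads had a Spearman correlation of 0.274 in JXO and 0.245 in OXJ. The bin with the most (+) strand reads, 22, was from 57 kb in JXO, next to its highest (−) strand bin, and in OXJ it was from 36 kb, with 10.6.

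**Figure D4:**
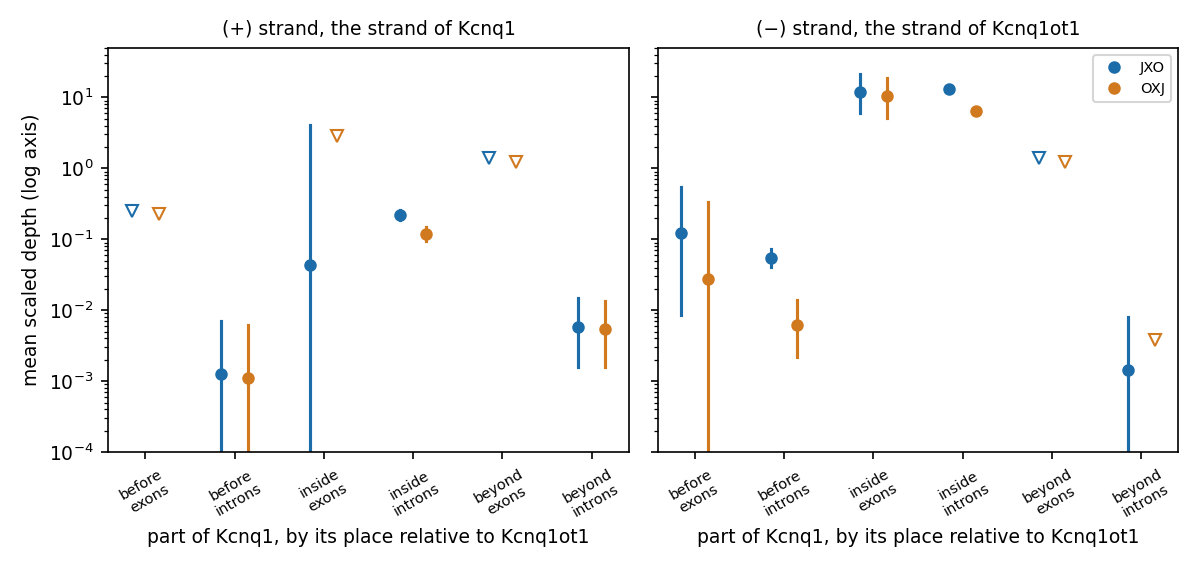
Mean scaled depth on a log axis over exons and introns of *Kcnq1* before, inside and beyond *Kcnq1ot1*, on the (+) strand (left) and the (−) strand (right). Points are levels with 95% counting intervals, intervals that reach 0 run to the axis, and open triangles stand at the level of 3 read pairs where no read was present; the introns inside *Kcnq1ot1* were at 13.3 in JXO and 6.52 in OXJ on the (−) strand, and at 0.221 and 0.119 on the (+) strand.

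Compared with other long antisense RNAs of imprinted genes, *Kcnq1ot1* had a higher level and a larger share of covered bases. *Airn*, which runs against *Igf2r* (chr17:12934177-13052988, 118.8 kb), had a level of 1.59 in JXO and 1.26 in OXJ, with reads over 59.9% and 56.9% of its bases and a longest gap of 9526 and 10650 bases. *Nespas*, antisense at *Gnas* (chr2:174106738-174120937, 14.2 kb), had a level of 3.55 and 2.11, with reads over 90.9% and 86.5% of its bases and a longest gap of 230 and 394 bases, shorter than the 584 and 1490 bases of the much longer *Kcnq1ot1*. The share of reads on the own strand was 77.4% for *Airn* in JXO (75.5 to 79.3%), with an interval of 78.0 to 81.9% in OXJ, and 94.9% and 96.1% for *Nespas*, where exons of the host genes are on the other strand. The hosts were abundant there, with exon levels of 73.3 and 81.1 for *Igf2r*, a receptor that clears IGF2, and 184 and 128 for *Gnas*, the stimulatory G protein subunit. *Kcnq1ot1* alone of the 3 antisense RNAs thus lay over a host without detected exons. In the ratio of JXO over OXJ across the whole span, *Airn* had a log2 value of 0.15 (0.04 to 0.26), *Nespas* 0.57 (0.34 to 0.80) and *Kcnq1ot1* 0.84. These counting intervals were separate for *Kcnq1ot1* and *Airn*, and overlapped at their edges for *Kcnq1ot1* and *Nespas*. Over annotated exons alone, *Airn* was at 0.56, from 171 reads in JXO and 115 in OXJ, and *Nespas* at 0.60. The ratio of *Airn* thus depended on the part measured. Of the 4 RNAs in the antisense list, *Xist*, which coats the inactive X chromosome, had an exon level of 91.6 in JXO and 87.0 in OXJ, and *Tsix*, its antisense RNA, 0.491 and 0.849.

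Other genes of the *Kcnq1* domain differed less between the libraries. Of 16 genes listed, 14 lay inside the stretches and 8 had at least 100 reads in each library. JXO was higher for 6 of these, none was 2-fold higher or lower, and the median log2 ratio was 0.13, beside 0.33 for all 558 genes. The 4 of highest level were *Cd81*, a tetraspanin of the cell surface (exon level 400 in JXO and 295 in OXJ), *Nap1l4*, a histone chaperone (240 and 157), *Cdkn1c*, an inhibitor of cyclin-dependent kinases (105 and 68.8), and *Tssc4* (85.4 and 71.3). In log2 they had ratios of 0.25, 0.43, 0.42 and 0.08. *Cdkn1c*, a gene that *Kcnq1ot1* is known to silence on the same chromosome, was detected in both lines. The study found *Cdkn1c* transcribed from the maternal allele and *Kcnq1ot1* from the paternal one. The total level of *Cdkn1c* is therefore not a measure of that silencing, which was not tested. *Phlda2*, another gene known to be silenced, had too few reads for a ratio (31.2 in JXO and 11.4 in OXJ). Of 9 channel partners and relatives of *Kcnq1*, 1 lay inside the stretches, the accessory subunit *Kcne3*, with no read in either library. The 5 genes whose ratio was nearest to that of *Kcnq1ot1* were *Uvrag* (0.85), *Acot1* (0.85), *Cap2* (0.85), *Slc38a1* (0.83) and *Cbx1* (0.82), a likeness over 2 libraries only, and reads of *Acot1* may be shared with its close paralogues.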

How the data were processed

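Strand-specific paired-end RNA sequencing of 1 JXO and 1 OXJ MEF line was used. According to the submitters' processing notes and the methods of the study, bases were called with CASAVA 1.9 and reads aligned to mm9 with TopHat 1.2.0 at up to 10 loci per read. For each base the authors took the read depth, scaled it to a library of 50000000 aligned reads, and deposited it as log2 after adding 1, in 4 tracks. Here the log2 values were turned back to depth and divided by the lowest step, which gave whole reads for 100% of the values (within a relative deviation of 3.6e-14). A read counted as 100 bases and a pair as 200. Reads in repeats of more than 10 copies were not aligned by the authors, which lowers the depth there. The tracks named forward held (−) strand RNA. Stretches are covered bases less than 50 kb apart. Genes were those of GENCODE M1, and *Kcnq1ot1* was placed by its RefSeq promoter. Ratios were taken at equal track totals, and bins of 1 kb needed 10 reads over both libraries. No p-value was given, as each cross had 1 library, and samples were grouped by the labels.

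Named were *Kcnq1ot1* and *Kcnq1*, up to 4 members of highest level per gene list inside the stretches, and the 5 genes of nearest ratio. *Phlda2*, *Igf2r* and *Gnas* were named besides. The members and lists were chosen with earlier results of these data known. Alternatives changed the window, the scale, the scaling, the bins and the exons. Intervals and counts were tested on simulated data. The software was scipy 1.17.1, pandas 2.3.3, matplotlib 3.10.9 and numpy 2.4.6 under Python 3.11.15.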

Additional observations from a re-analysis of the deposited data

How the results depend on the processing

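*Kcnq1ot1* was higher in JXO under every scaling tried. The alternatives for the *Kcnq1* exons took fewer exons, another scale or a stricter read count on the same tracks. They could not add (+) strand reads, so they do not test the absence of such reads outside *Kcnq1ot1*. Of 44 values computed under an alternative, 24 stayed within the counting interval or set range of the main value, 18 moved and 2 changed sign. The log2 ratio of JXO over OXJ, 0.84, was 1.03 at the deposited scale, 0.59 with the median 10 kb bin set equal and 0.90 as the median over 1 kb bins. The level of 13.3 in JXO and 6.52 in OXJ was 10.1 and 4.95 over a fixed window of 110000 bases that holds the gene, and 10.6 and 4.75 as a mean of log2 values. The own-strand share was 84.2% in JXO and 85.9% in OXJ when covered bases were counted in place of reads. Bases with at least 2 reads were 95.4% in JXO and 86.6% in OXJ. The extent of 96 kb in JXO was 92 kb with no empty bin bridged, longer (102 kb) with up to 5 bridged and 84 kb with at least 10 reads required in a bin, and that of 88 kb in OXJ was 84 kb with no empty bin bridged and 79 kb with at least 10 reads required. The slope of log2 level per 10 kb was −0.07 in JXO and −0.05 in OXJ, and 0.14 in both with the first and last bin left out, so no overall slope is read from these profiles. The *Kcnq1* exon level of 0.00268 in JXO became 0 without the exon inside *Kcnq1ot1*, and its 1 exon with a read became 0 when at least 2 reads were required. The causes were not tested. The alternative limited to bases not marked as repeats was not run, since the genome sequence used here carries no such marks. No paired analysis was possible because there was 1 library per cross. Depth limited the *Kcnq1* exons and the signal past the RefSeq end, where single reads decide the values.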
